A study of Mus musculus with 2 samples.

Results

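The 6 Iroquois homeobox genes, Irx1 to Irx6, were followed in the developing limb of the mouse (strain C57BL/6J) on embryonic day 14.5. They were found by gene symbol in the gene and transcript tables of both libraries, 6 of 43346 gene rows. The series holds 1 group of 2 libraries, labelled biological replicates 1 and 2, each made from pooled littermates of mixed sex, with 1 donor identifier for both pools. There is no second condition to set them against. RNA above 200 nucleotides was selected for poly(A) tails after removal of ribosomal RNA and read as stranded pairs. Whether forelimbs or hindlimbs were used, and whether the pools were separate litters, is not stated, so the spread between the libraries may be partly technical. All SDs below are over these 2 libraries.

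Iroquois genes encode transcription factors of the TALE class, whose homeodomain, the DNA-binding part, carries a short loop extension. They were first described in Drosophila and in mammals lie in a pair of clusters that arose by duplication, so that Irx1 and Irx3, Irx2 and Irx5, and Irx4 and Irx6 are counterparts. In the mouse, Irx3 and Irx5 act together in early patterning of the hindlimb skeleton, and Irx1 and Irx2 are expressed in the forming digits. Irx4 is best known from the ventricles of the heart, and Irx6 from neurons of the retina.

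The 6 genes share much of their homeobox, which bears on whether reads of one member can be taken for another. The stretch that encodes the recognition helix of the homeodomain and its flanks is shown for the leading transcript of each gene, 5′ to 3′ on the coding strand, from the GENCODE M21 transcripts. Capitals mark the positions at which the 6 genes do not all carry the same base.
Irx1: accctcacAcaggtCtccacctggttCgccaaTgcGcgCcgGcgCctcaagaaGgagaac
Irx2: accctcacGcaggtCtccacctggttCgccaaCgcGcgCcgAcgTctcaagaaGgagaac
Irx3: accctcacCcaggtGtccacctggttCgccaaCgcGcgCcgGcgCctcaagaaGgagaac
Irx4: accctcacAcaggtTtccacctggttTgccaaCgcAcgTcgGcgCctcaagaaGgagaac
Irx5: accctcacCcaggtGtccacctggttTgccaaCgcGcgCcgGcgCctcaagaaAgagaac
Irx6: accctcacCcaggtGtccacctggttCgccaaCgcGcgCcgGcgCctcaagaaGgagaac
The stretches lie on the minus strand at chr13:71959995-71960054 for Irx1 and chr8:91800499-91800558 for Irx3 (mm10). The others lie on the plus strand, at chr13:72630790-72630849 for Irx2, chr13:73267649-73267708 for Irx4, chr8:92359753-92359812 for Irx5 and chr8:92677362-92677421 for Irx6. Each is within 1 coding exon, exon 2 for Irx1, Irx2, Irx3 and Irx5, exon 5 for Irx4 and exon 4 for Irx6. Of the 60 positions 51 were the same in all 6 genes, and all 9 variable positions were at the last base of a codon. The 6 stretches had 1 translation between them. Irx3 and Irx6 were identical over all 60 bases, and identity between pairs was lowest at 88.3% for Irx2 and Irx4. Over whole leading transcripts, the longest run of bases shared exactly by a pair of members was 88 bases, in Irx3 and Irx6, followed by 65 bases in Irx2 and Irx5. All these runs are shorter than 1 read. The deposited counts of all 6 genes were whole numbers in both libraries (within 0.005), with no fraction assigned to another gene, although whole counts can still hide reads shared with other genes.

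All 6 members were detected, that is, had at least 1 TPM in each of the libraries. TPM is a level that is scaled for the length of the transcript and then to a fixed sum per library. Among all genes 33.8% passed this threshold, and among protein-coding genes 62.8%. The family summed to 158 and 190 TPM in replicates 1 and 2. Irx1, Irx2, Irx5 and Irx3 formed a higher set, and Irx6 and Irx4 a lower one. In bulk tissue, fewer cells that express a gene and less RNA per cell cannot be told apart.

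Irx1 (ENSMUSG00000060969.8, chromosome 13, 71957921 to 71963723), a factor of forming cartilage and digits, had 44.8 and 61.7 TPM in replicates 1 and 2, from 7305 and 9243 counts. Its mean of 53.2 ± 11.9 TPM (SD, n = 2) was above that of 85.9% of protein-coding genes. Irx2 (ENSMUSG00000001504.10, chromosome 13, 72628820 to 72634198), its neighbour, had 47.3 and 46.2 TPM from 6513 and 5941 counts, a mean of 46.7 ± 0.799 TPM. At the gene level Irx1 and Irx2 changed places between the libraries: Irx2 was the highest member in replicate 1 and Irx1 in replicate 2. The full-length coding transcript of Irx2 alone lay below Irx1 in both. Irx4 (ENSMUSG00000021604.11, chromosome 13, 73260479 to 73269608), the heart ventricle factor at the other end of the same cluster, had 6.17 and 5.49 TPM from 1055 and 874 counts, a mean of 5.83 ± 0.481 TPM. It was the lowest member, above 50.0% of protein-coding genes. The smaller of its counts, 874, has an exact 95% Poisson interval of 817.0 to 934 counts, which covers counting error only.

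Irx5 (ENSMUSG00000031737.10, chromosome 8, 92357625 to 92376286), the partner of Irx3 in limb patterning, led the other cluster with 28.7 and 40.2 TPM from 4743 and 6108 counts, a mean of 34.4 ± 8.13 TPM. Irx3 (ENSMUSG00000031734.12, chromosome 8, 91798525 to 91802067) followed with 24.4 and 28.9 TPM from 4398 and 4790 counts, a mean of 26.7 ± 3.17 TPM. Irx5 was above Irx3 in each library, but the value of Irx5 in replicate 1 lay below that of Irx3 in replicate 2. Irx6 (ENSMUSG00000031738.10, chromosome 8, 92674288 to 92680956), the retinal factor, had 6.32 and 7.34 TPM from 1445 and 1569 counts, a mean of 6.83 ± 0.721 TPM. It lay above 51.7% of protein-coding genes.

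**Figure D1:**
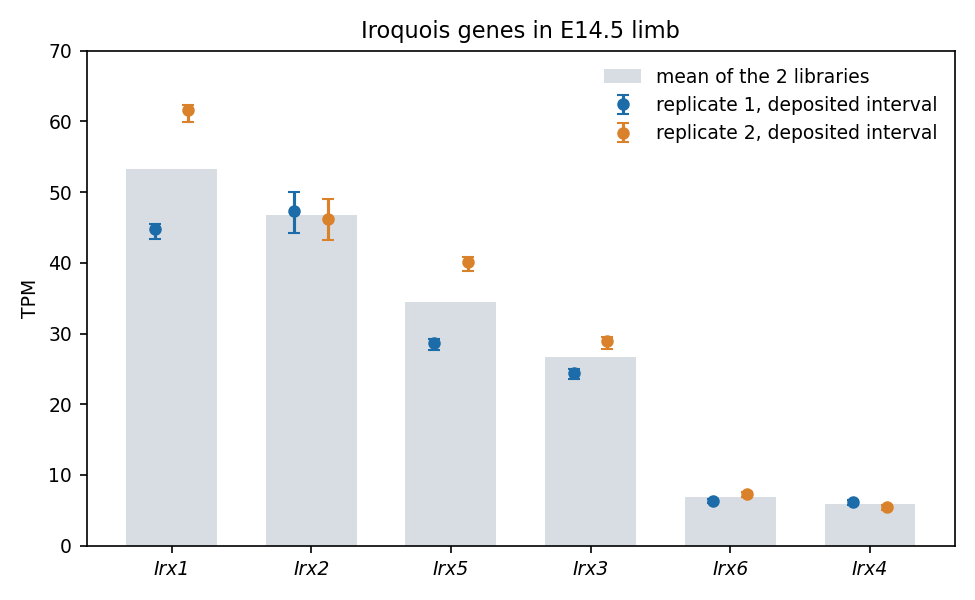
TPM of the 6 Iroquois genes (x axis, ordered by mean) in each library (points) with the interval deposited beside each value (error bars, level not stated) and the mean of the 2 libraries (grey bars). Irx1, Irx2, Irx5 and Irx3 had means between 26.7 and 53.2 TPM, and Irx6 and Irx4 means of 6.83 and 5.83 TPM.

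Taken by mean, the order was Irx1, Irx2, Irx5, Irx3, Irx6 and Irx4. Of the 15 pairs of members, 13 had values that did not overlap over the 2 libraries, beside 92.4% of all pairs of detected genes. The 2 overlapping pairs were neighbours in the order, Irx1 with Irx2 and Irx5 with Irx3. Irx1 over Irx2 gave log2 TPM ratios of -0.08 and 0.42 in replicates 1 and 2, a mean of 0.17 ± 0.35 (SD, n = 2), which is smaller than its SD. Irx5 over Irx3 gave 0.23 and 0.47, a mean of 0.35 ± 0.17, which is larger than its SD, with Irx5 higher in both libraries. At the gene level Irx2 lay above Irx5 by 1.65-fold in replicate 1 and 1.15-fold in replicate 2, without overlap. That level includes short transcript models. The full-length coding transcript Irx2-201 alone had 32.6 and 33.3 TPM, which lay above Irx5 in replicate 1 and below it in replicate 2. The widest step between neighbours was from Irx3 to Irx6, with Irx3 higher by 3.87-fold and 3.94-fold in replicates 1 and 2 (log2 difference 1.97 ± 0.0194, SD, n = 2). Irx6 exceeded Irx4 by 1.02-fold in replicate 1 and 1.34-fold in replicate 2, without overlap, but with a mean log2 difference of 0.23 ± 0.27 (SD, n = 2) that is smaller than its SD. In replicate 1 the deposited intervals of these genes, 5.97 to 6.62 TPM for Irx6 and 5.74 to 6.50 TPM for Irx4, overlapped each other. With 2 libraries an exact sign-flip permutation test of such a difference cannot go below a two-sided p of 0.5, so no test was made.

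Each gene of the chromosome 13 cluster was then set against its counterpart on chromosome 8. Irx1 exceeded Irx3 by 1.83-fold and 2.13-fold in replicates 1 and 2 (log2 ratio 0.98 ± 0.15, SD, n = 2). Irx2 exceeded Irx5 at the gene level by a log2 ratio of 0.72 and 0.20, a mean of 0.46 ± 0.37. Irx2-201 alone did not keep this order in replicate 2. Irx4 over Irx6 gave log2 ratios of -0.03 and -0.42, a mean of -0.23 ± 0.27, which is smaller than its SD. In both clusters the gene at one end, Irx4 or Irx6, was the lowest of its cluster in each library. The chromosome 13 genes Irx1, Irx2 and Irx4 summed to 98.3 and 113 TPM, and the chromosome 8 genes Irx3, Irx5 and Irx6 to 59.5 and 76.5 TPM. The first sum, which includes the short transcript models of Irx2, was higher by 1.65-fold in replicate 1 and 1.48-fold in replicate 2 (log2 ratio 0.65 ± 0.11, SD, n = 2).

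Several members differed between the 2 libraries by more than counting error. An exact two-sided binomial test on the counts was adjusted by Benjamini-Hochberg over 20379 genes. In it 5 of the 6 members passed 0.05, beside 60.1% of all genes tested. When only genes with at least 100 counts were tested, 5 members again passed, beside 70.7% of genes. The test compares these 2 libraries and not conditions, and a share near that of all genes is not a result about the family. Irx1, Irx3, Irx5 and Irx6 were higher in replicate 2, as were 30.1% of genes, and Irx4 was higher in replicate 1, as were 29.9%. The call of Irx4 (log2 count ratio of replicate 1 over replicate 2 0.16, adjusted p = 0.0311, exact binomial test) was lost when no minimum count was set (adjusted p = 0.0657, exact binomial test). Irx2 did not pass (log2 count ratio 0.02, adjusted p = 0.568, exact binomial test).

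Irx5 and Irx1 showed the widest differences between the libraries. Their log2 TPM ratios of replicate 1 over replicate 2 were -0.49 and -0.46, against a median absolute ratio of 0.22 over the 14663 detected genes. A larger ratio than that of Irx5 was found in 16.1% of detected genes, larger than that of Irx1 in 18.0%, and larger than that of Irx3 in 46.0%. Irx3 and Irx6 had ratios of -0.24 and -0.22, near that median. Some tissue markers moved between the libraries as well. The lists went both ways. The kidney sum was higher in replicate 2, at 26.1 and 39.6 TPM in replicates 1 and 2, mostly through Six2 at 24.95 and 38.99. The liver sums were nearly equal at 30.2 and 30.6 TPM. The lung and gonad sums were low, at 0.20 and 0.62 and at 1.00 and 1.62 TPM. The summed TPM of heart, neuron and adipocyte markers was higher in replicate 1, and that of endothelium markers slightly so, at 102 and 97.3 TPM. Among the lists of limb tissues and patterning genes, the summed TPM of 5 was higher in replicate 2. It was 289 and 368 in replicates 1 and 2 for limb mesenchyme (5 of 6 markers higher in replicate 2), 2139 and 2498 for cartilage (4 of 5), 451 and 641 for joint interzone (5 of 5), 199 and 239 for tendon (2 of 3) and 192 and 249.6 for the patterning partners of the Iroquois genes (6 of 7). In the joint interzone list, Sfrp2 alone had 370 and 534 TPM, from 34548 and 35933 counts. Of the markers counted as higher in replicate 2, Erg, Mkx, Fgf8 and Shh did not pass the exact binomial test. The epidermis sum was 792 and 572, with 4 of 4 markers higher in replicate 1, although Trp63 did not pass that test. The skeletal muscle sum was 367 and 321 with 2 of 4 markers higher in replicate 1, and Myh3 alone, at 159 and 91.5 TPM, differed by more than the sum did. The part of these tissues in the differences of the Iroquois genes was not tested.

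**Figure D2:**
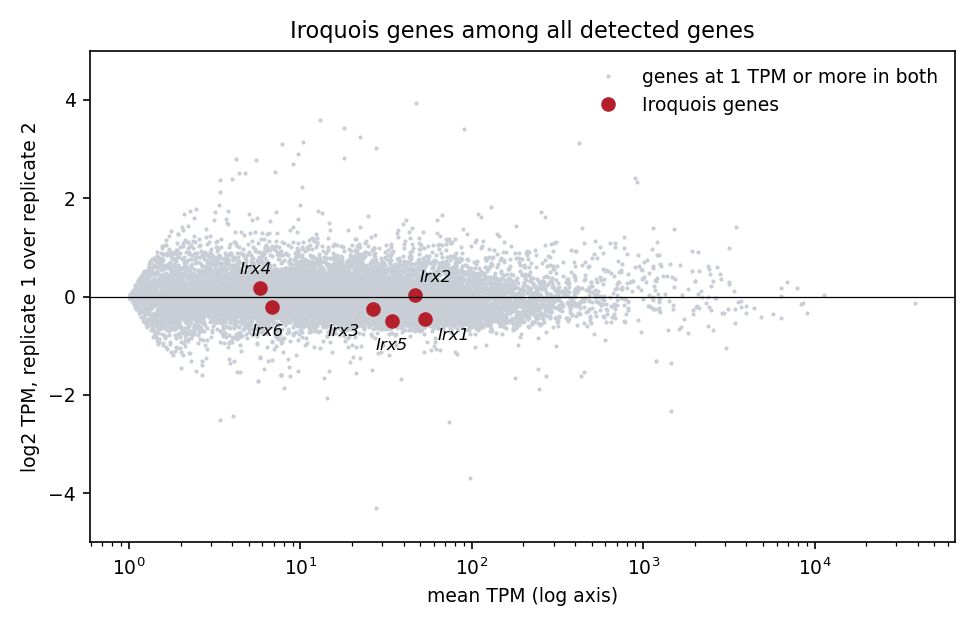
Log2 TPM of replicate 1 over replicate 2 (y axis) against mean TPM (x axis, log scale) for the 14663 genes at 1 TPM or more in both libraries (grey) and the 6 Iroquois genes (red). Irx1 and Irx5 lie lowest of the family at -0.46 and -0.49, within the cloud of all genes.

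The transcript tables list 13 transcripts for the 6 genes. Irx1 and Irx5 had 1 transcript each. For Irx3, Irx3-202 held 95.6% and 98.4% of the gene's TPM in replicates 1 and 2 and Irx3-201 the rest. These are the authors' estimates for transcripts that overlap along most of their length.

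Irx4 had a divided output. Irx4-201 held 46.0% and 60.0% and Irx4-202 54.0% and 40.0% in replicates 1 and 2, so that the leading transcript differed between the libraries. In TPM, Irx4-201 had 2.84 and 3.29, and Irx4-202 had 3.33 and 2.20. Both are annotated as protein-coding with 6 exons. For Irx6 the longer transcript, Irx6-201 of 3370 bases, led with 77.0% and 84.6%, and Irx6-202 of 2829 bases had 23.0% and 15.4%.

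Irx2 had the most transcripts, 5. Its full-length coding transcript Irx2-201, of 2625 bases, held 69.0% and 72.2% of the gene's TPM. Irx2-202, annotated as a retained intron, held 17.3% and 10.2%, and the short coding model Irx2-203 held 12.1% and 14.8%. The short models weigh more in TPM than in reads: of the gene's counts, Irx2-201 held 91.2% and 93.9%, Irx2-202 6.85% and 3.86%, and Irx2-203 1.65% and 1.79%. The level of Irx2 itself, which sums these transcripts, therefore also holds the estimates for these short models. Irx2-201 alone had 32.6 and 33.3 TPM in replicates 1 and 2, above Irx5 in replicate 1 and below it in replicate 2.

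**Figure D3:**
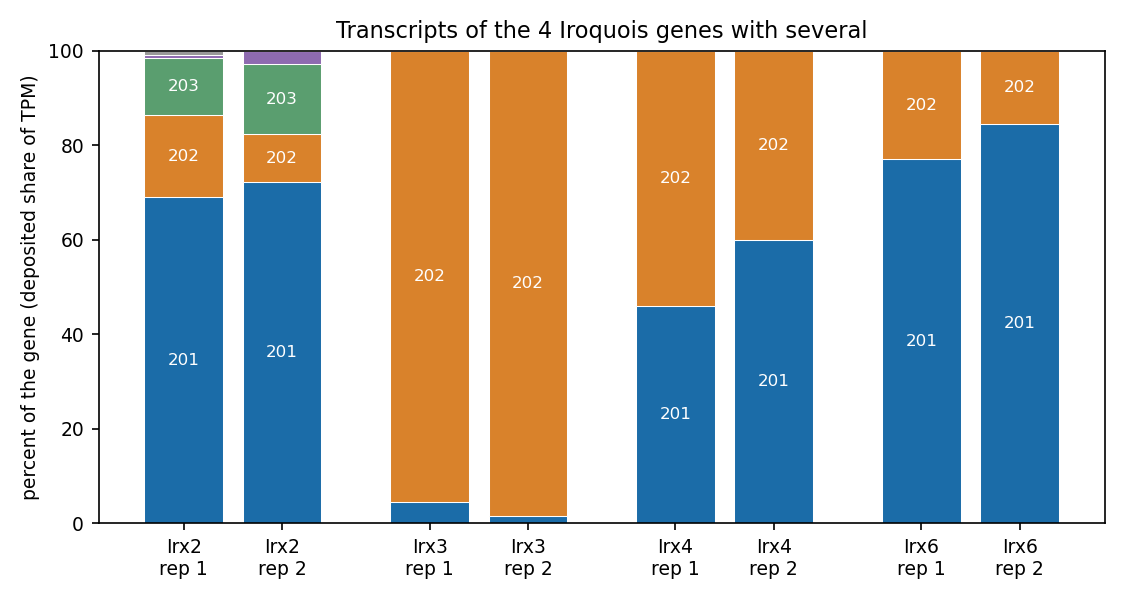
Percent of each gene's TPM held by each of its transcripts (stacked bars, numbers are transcript names) in replicates 1 and 2, as deposited. Irx4-201 and Irx4-202 change places, at 46.0% and 54.0% in replicate 1 and 60.0% and 40.0% in replicate 2.

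Both clusters spread over long stretches. The chromosome 13 cluster spans 1312 kb, with gaps of 665 kb between Irx1 and Irx2 and 626 kb between Irx2 and Irx4. The chromosome 8 cluster spans 882 kb, with gaps of 556 kb between Irx3 and Irx5 and 298 kb between Irx5 and Irx6. Between the outermost members, 24 other genes are annotated in GENCODE M21, 9 of which have a row in the tables. Of these 9, 4 reached 1 TPM in both libraries, against 12 of 24 genes with a row in the 500 kb flanks and 33.8% of all genes. The other 15 annotated genes have no row and were not analysed here.

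Of the 4, 3 are noncoding RNAs whose start lies near that of an Iroquois gene. Gm20554, a long intergenic noncoding RNA, starts 256 bases from Irx2 and is transcribed away from it. It had 5.28 and 4.48 TPM in replicates 1 and 2, and Irx2 was 8.96-fold and 10.3-fold above it. Crnde, a noncoding RNA known from colorectal tumours in humans, starts 1505 bases from the annotated start of Irx5 and also runs away from it. It had 17.6 and 14.7 TPM, and Irx5 was 1.63-fold and 2.74-fold above it. Crnde was higher in replicate 1 (log2 TPM ratio of replicate 1 over replicate 2 0.26), whereas Irx5 was higher in replicate 2. Irx3os overlaps Irx3 on the opposite strand over 1653 bases and had 3.10 and 3.55 TPM, with Irx3 7.89-fold and 8.15-fold above it. The libraries are stranded, but no source used here says whether the counting used strand, so reads of Irx3 and Irx3os may not be fully separated. The remaining gene, the pseudogene Rpl9-ps4, had 3.99 and 4.04 TPM and shared reads with other genes.

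In the flanks, the highest genes next to Irx3, Irx5 and Irx6 were Mmp2, a matrix-degrading protease, at 269 ± 35.2 TPM and Fto, an RNA demethylase gene whose introns hold regulatory elements of Irx3, at 64.4 ± 3.15 TPM (SD, n = 2). Capns2 and Lpcat2 followed at 24.0 ± 6.39 and 8.41 ± 0.403 TPM. Next to Irx1, Irx2 and Irx4, all 4 leading genes lay beyond Irx4: Ndufs6, Clptm1l, Mrpl36 and Lpcat1 at 146 ± 25.7, 104 ± 12.7, 73.5 ± 0.587 and 48.1 ± 9.43 TPM (SD, n = 2). Irx4 thus had 5.83 TPM next to Ndufs6, a mitochondrial complex I gene whose start lies 68.1 kb away.

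**Figure D4:**
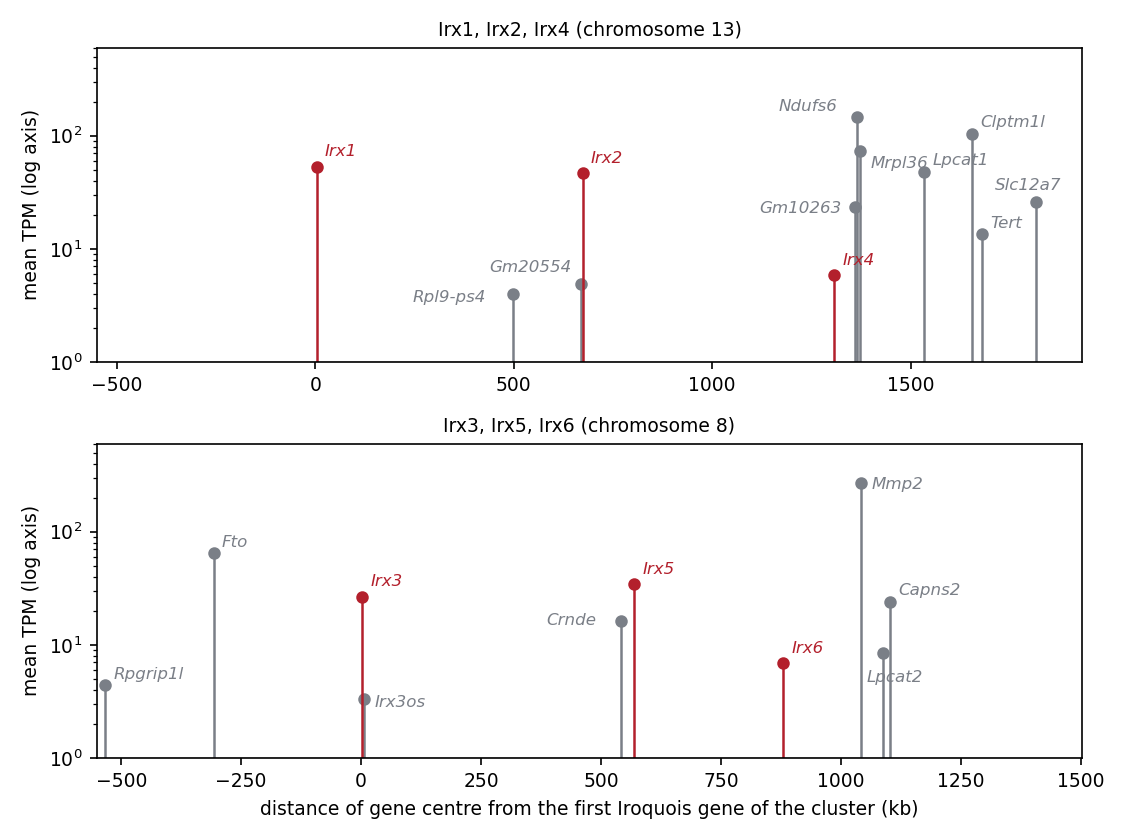
Mean TPM (y axis, log scale) of the Iroquois genes (red) and of neighbouring genes at 1 TPM or more in both libraries (grey) by the distance of the gene's centre from the first Iroquois gene of its cluster. Between the outermost members, Gm20554 and Rpl9-ps4 in one cluster and Irx3os and Crnde in the other are the detected genes.

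The gap between the starts of Irx2 and Gm20554 is shown because RNA of both genes was measured on either side of it. The 250 bases before the start of Irx2 at chr13:72628570-72628819 on the plus strand (GRCm38.p6, RefSeq) fill nearly all of it, with capitals marking CpG dinucleotides.
Irx2: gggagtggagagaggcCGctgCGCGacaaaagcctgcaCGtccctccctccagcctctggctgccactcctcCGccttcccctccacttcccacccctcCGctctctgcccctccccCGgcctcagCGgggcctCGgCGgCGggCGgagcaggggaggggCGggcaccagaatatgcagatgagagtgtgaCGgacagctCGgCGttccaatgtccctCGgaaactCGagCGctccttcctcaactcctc
This window holds 19 CpG and 68.4% G and C, more CpG than 80.3% of 32851 such windows, whose median is 6. The RefSeq windows matched 3 of the 6 members. That of Irx4 held 22 CpG and 68.8% G and C, although Irx2 stood 7.66-fold and 8.41-fold above Irx4 in TPM in replicates 1 and 2. That of Irx3 held 13 CpG and 56.0% G and C. The RefSeq start of Irx3, at 91801654 on the minus strand, differs from its GENCODE start at 91802067. The window of Irx3 therefore lies inside the gene as annotated in GENCODE. The letters TATAAA, on either strand, were in none of the 3 windows and in 12.4% of all windows. CCAAT, on either strand, was in the window of Irx2 and in 33.8% of all windows. ACANNTGT, the palindromic site bound by Iroquois proteins of Drosophila, was in none of the 3 and in 6.31% of all. These are matches of letters within 250 bases and not measured binding.

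Other TALE genes gave a scale for these levels. All 11 examined were detected with a median of 26.3 TPM, beside 30.6 TPM for the 6 Iroquois genes and 18.3 TPM for all detected genes. Between the libraries 8 of the 11 passed the exact binomial test, beside 60.1% of all genes. That share was 70.7% when only genes with at least 100 counts were tested. By mean TPM, Irx1 and Irx2 ranked 4 and 5 of these 17 TALE genes, with the short transcript models of Irx2 included. Above them stood Pbx2, a partner of Hox proteins, at 120 ± 3.56 TPM and the repressors Tgif1 and Tgif2 at 58.2 ± 6.05 and 57.3 ± 14.1 TPM (SD, n = 2). Irx5 and Irx3 ranked 6 and 9, among the tendon regulator Mkx at 34.0, Pbx3 at 27.0 ± 2.69, Meis3 at 26.3 ± 2.65 and Pknox1 at 23.6 ± 1.83 TPM. The levels of Mkx are less certain: 25.5 and 42.5 TPM in replicates 1 and 2 came from 4900 and 4616 counts. Nearby ranks were not kept in each library. Mkx stood above Irx5 in replicate 2, and Pbx3 above Irx3 in replicate 1. Irx2-201 alone had 32.6 and 33.3 TPM in replicates 1 and 2. Irx6 and Irx4 ranked 15 and 16, below Meis2 at 17.6 ± 6.04, Pknox2 at 13.6 ± 2.95 and Meis1 at 11.7 ± 2.52 TPM. They stood above Pbx4 alone at 5.30 ± 0.276 TPM. Meis1 and Meis2 act in the proximal limb with Pbx proteins. Pbx2, Tgif2 and Meis1 shared reads with other genes.

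**Figure D5:**
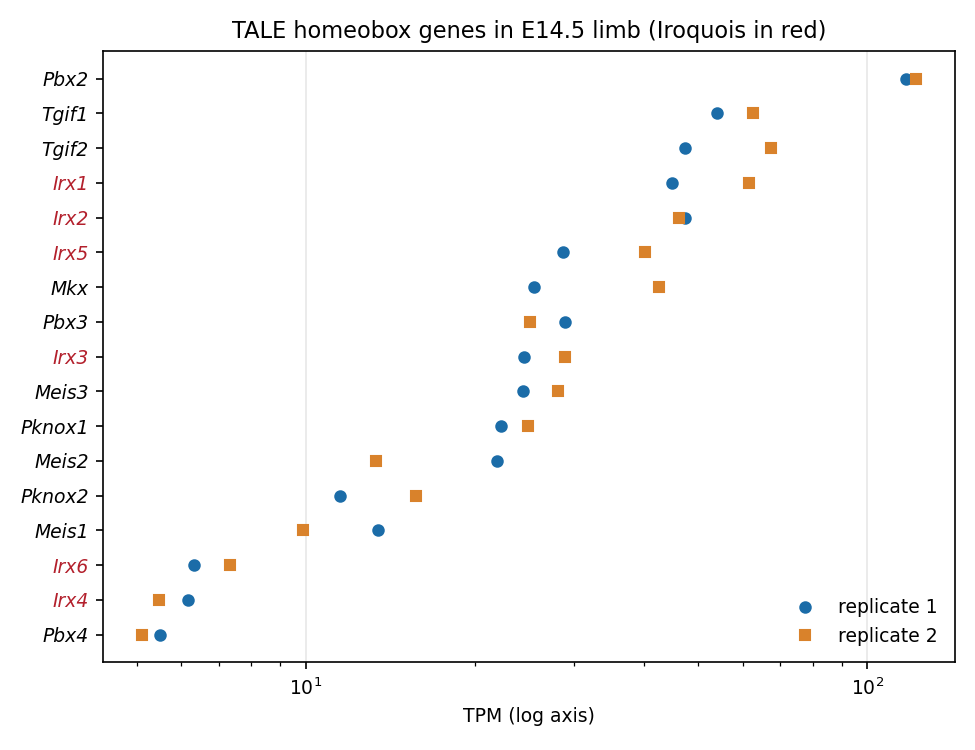
TPM (x axis, log scale) of 17 TALE homeobox genes in replicate 1 (circles) and replicate 2 (squares), ordered by mean, with the Iroquois genes in red. Irx1 and Irx2 stand in places 4 and 5, and Irx6 and Irx4 in places 15 and 16.

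Genes that act with Iroquois factors in early limb patterning were mostly present. Gli1 and Ptch1, targets of hedgehog signalling, had 104 ± 22.2 and 46.5 ± 11.4 TPM, and Gli3, the mediator that acts with Irx3 and Irx5 in the mouse hindlimb, had 31.9 ± 5.95 TPM (SD, n = 2), close to Irx5. Hand2, a factor of the posterior limb bud, had 30.1 ± 1.36 TPM and Fgf10, a mesenchymal growth factor, 6.55 ± 0.148 TPM. The signals of the early bud were low, with Fgf8 at 0.95 and 1.20 TPM and Shh at 0.28 and 0.32 TPM in replicates 1 and 2.

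Defining markers of the labelled tissue were present. All 6 limb mesenchyme markers were detected, led by Prrx1, with 34683 and 33658 counts in replicates 1 and 2, and followed in TPM by Msx1 and Pitx1 at means of 82.8 and 63.4 TPM. So were all 5 cartilage markers (Col2a1, Matn1 and Col9a1 highest at 1496, 426 and 214 TPM) and all 5 joint interzone markers (Sfrp2, Gdf5 and Erg at 452, 41.0 and 38.4 TPM). The 3 tendon markers Scx, Tnmd and Mkx had 114, 70.9 and 34.0 TPM. All 4 skeletal muscle and all 4 epidermis markers were detected, with Myog, Myh3 and Myod1 at 134, 125 and 79.1 TPM and Krt5, Krt14 and Krt1 at 285, 219 and 155 TPM. Which of these tissues held the RNA of each Iroquois gene was not measured.

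Because Irx4 is known from the heart, 7 genes of the ventricle were set beside it. Their summed TPM was 58.5 and 38.7 in replicates 1 and 2, and 3 of the 7 were detected. These 3 were Myl3, Myh7 and Myl2 at 18.8 ± 4.19, 17.6 ± 5.35 and 11.3 ± 4.52 TPM (SD, n = 2), which slow skeletal muscle also expresses. The other 4 were near 0, with Myh6 at 0.435, Gata4 at 0.315, Nppa at 0.135 and Nkx2-5 at 0.085 TPM on average, below Irx4 at 5.83 TPM. Nppa had a count of 0 in replicate 1, which allows up to 3 counts.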

How the data were processed

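Poly(A) RNA of limb tissue was measured in 2 libraries. The authors made a gene and a transcript table per library against mm10 with GENCODE M4, per the notes deposited beside them; no source used here names the program. Per the file headers, these hold the expected count (reads after sharing ambiguous ones), the TPM with the bounds of an interval (the signal range deposited beside each TPM, level not stated) and the percent of each transcript in its gene. Because TPM divides by an estimated length, a gene with several transcripts also carries the error of their shares.

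Symbols and positions were looked up in GENCODE M21 (GRCm38, which is mm10) by gene identifier without version; 884 of 43346 gene rows had no match. ERCC, phiX and tRNA rows (3.73% and 4.30% of deposited counts in replicates 1 and 2) were left out of library totals and tests. Totals were 110172148 and 103363136 counts. Log2(TPM + 1) correlated across genes, which are not independent replicates, with a Pearson r of 0.994.

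Levels were described with no test. Rounded expected counts of genes with at least 10 in total were compared between the libraries by an exact two-sided binomial test, scaled by edgeR 4.0.16 TMM factors (DESeq2 1.42.0 factors as an alternative), and checked on simulated data. Count ratios used a prior of 0.5. Windows before gene starts came from RefSeq, outside chromosome 18. The genes named are all Iroquois genes, the other TALE genes examined (1 gene is not reported here), genes between the outermost members at 1 TPM or more in both libraries, the 4 highest of each pair of flanks, all patterning partners and the 3 highest and those at 0 of each marker list; the heart list was given whole after its values were seen. With 2 libraries, likeness of pattern across samples cannot be measured, and no gene was named for it. The members, lists and tests were chosen with earlier results of these data known.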

Additional observations from a re-analysis of the deposited data

How the results depend on the processing

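Of 92 values recomputed under another setting, 83 stayed the same. That meant within the spread of the libraries, within 1.5 times for a count, or with an unchanged call for a member compared between the libraries. No ratio changed direction. Posterior mean TPM moved no level, ratio of counterparts or count beyond these limits. TMM and DESeq2 scaling of TPM was applied to the levels alone and moved none. The TMM factors of 1.008 and 0.992 in replicates 1 and 2 nearly cancel in a mean, so no level could move far. In the binomial test, DESeq2 factors left the count of members passing at 5. With 2 libraries, leaving one out returns the value of the other, which always lies within the spread, so the 30 values of that kind are not counted and show nothing about stability. Counts were also divided by the deposited gene length and the library total, which is another scale. The levels then averaged 32.8 for Irx1, 28.4 for Irx2, 16.6 for Irx3, 3.62 for Irx4, 21.3 for Irx5 and 4.33 for Irx6, in the same order. The deposited length of Irx2 reflects its short transcript models too, so this setting does not take out their weight. With TPM rescaled over gene rows alone Irx2 averaged 49.0. By expected counts in place of TPM, the leading transcript of Irx2 held 92.6% of the gene, in place of 70.6%. With no minimum count 4 of 6 members and 26.5% of all genes differed between the libraries; over the settings the adjusted p of Irx4 ran between 0.0129 and 0.0657 (exact binomial test), and no other member gained or lost its call. No paired analysis was possible because there is only 1 group. Each member had 874 counts or more per library, and for Irx2 and, with no minimum count, Irx4 a difference between the libraries beyond counting error was not detectable at this depth.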

Other observations

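Most markers of kidney, lung, gonad, neurons and adipocytes were not detected, whereas all those of liver and endothelium were. Of 6 kidney genes 1 was detected: Six2 had 32.0 TPM, Wt1 0.72 and Pax2 0.06 TPM on average, and Umod had 0 counts in each library, where 0 allows up to 3 counts. None of 4 lung genes was detected, with Sftpc at 0.17, Scgb1a1 at 0.145 and Nkx2-1 at 0.09 TPM. None of 3 gonad genes was detected in both libraries, with Amh, Nr5a1 and Foxl2 at 1.20, 0.07 and 0.04 TPM. Of 6 genes of neurons and the neural tube 1 was detected, with Tubb3, Elavl3 and Pax6 at 9.40, 0.425 and 0.33 TPM. Of 4 adipocyte genes 1 was detected, with Fabp4, Pparg and Adipoq at 11.2, 1.25 and 0.27 TPM. All 3 liver genes were detected, with Afp, Ttr and Alb at 21.6, 5.36 and 3.40 TPM, and Alb had 5.70 and 1.10 TPM in replicates 1 and 2. All 3 endothelial genes were detected, with Cdh5, Pecam1 and Kdr at 49.2, 34.3 and 16.2 TPM.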
